A study of Mus musculus and Rattus norvegicus with 2 samples.

Results

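The RNAs described here are short pieces of ribosomal RNA (rRNA) in sperm: fragments of 18 to 25 nt that the deposited tables assign to a GenBank entry labelled rRNA. They were chosen by that label and by length alone. There were 5196 such sequences of 89179 in the mouse and 16744 of 137388 in the rat. In the mouse 4932 of them carried a count, 24257 reads in all, and in the rat every one did, 305593 reads in all. Both libraries were made from sperm that the labels call purified, taken from the cauda epididymis, where mature sperm wait before ejaculation. The mice were C57BL/6 at an age of 2 months, the rats Sprague Dawley young adults weighing 450 g, and the labels name no treatment of either. Total RNA was taken with Trizol, and the fraction of 18 to 45 nt entered the libraries. There was 1 library per species, the sources used here do not give the number of animals behind it, and no value has a replicate error. Intervals are exact 95% intervals that cover counting error only, since copies of a read made by PCR are not independent molecules.

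Ribosomal RNA is the structural and catalytic core of the ribosome. The 18S, 5.8S and 28S RNAs are cut from one long precursor whose spacers are discarded, while the 5S RNA has genes of its own. Sperm shed most of their cytoplasm late in development, and pieces of rRNA and tRNA are common among the small RNAs they keep. GenBank entries labelled rRNA can hold a mature RNA, the precursor or a part of either, and the label alone does not say which subunit a fragment came from.

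The listed depth was 691381 mouse reads and 2102735 rat reads, and 78279 mouse and 63001 rat identifiers had no line in the tables, so every share is of listed reads. Of the miRNAs taken as a check of the sample label, the 4 of male germ cells summed to 365 mouse and 6743 rat reads, with all 4 listed in both. The 3 of stroma and smooth muscle summed to 2412 and 843 reads, and the 5 of epithelium to 232 and 130. The 6 of blood summed to 42 and 3, with miR-223-3p at 0 in both. Most of each of the first 3 sums was 1 miRNA: miR-34c-5p with 255 and 5785 reads, miR-143-3p with 2392 and 813, and miR-141-3p with 218 and 104. The other stromal ones had more rat reads, miR-145a-5p with 13 and 15 and miR-199a-3p with 7 and 15. The other epithelial ones had 1 to 6 mouse and 1 to 18 rat reads. miRNAs typical of other cells of the duct were thus listed beside those of germ cells, and the part of those cells in the rRNA fragments was not tested.

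A fragment's start is taken as its first 18 nt in the direction in which it was read, so that fragments of several lengths with one 5′ end are summed. The most abundant sequence of each of the 10 leading starts is printed below because these carry the results on position, nesting and species. Capitals mark the start and lower case the bases after it.
mouse 1: GCACGTTCGTGTGGAACCtggcgct
mouse 2: AAACGAGAACTTTGAAGGccgaa
mouse 3: AACGAGAACTTTGAAGGCcgaagt
mouse 4: GCCCGTGGACGGTGTGAGgccggt
mouse 5: TCGGCGGCGATGTCGGCT
mouse 6: CTTCCCGTGGATCGCCTCagctgc
mouse 7: ACTAATCCTAGCCCTAGCcctac
mouse 8: AAGGGCTGGGTCGGTCGGgctggg
mouse 9: CGTGTGGAACCTGGCGCT
mouse 10: CAGGACGGTGGCCATGGAagtcgg
rat 1: CGGCGTCCGGTGAGCTCTcgctggc
rat 2: AGGGCTGGGTCGGTCGGGctgggg
rat 3: CGCCGTCGGGCCCGGGGGggc
rat 4: GCCGATCGAAAGGGAGTCgg
rat 5: CGGCGGCGACTCTGGACGcgagcc
rat 6: AGGGGTCGGGGCGGGGTCcgccggc
rat 7: CGCGCCGTCGGGCCCGGGggggc
rat 8: CCGGTGAGCTCTCGCTGGcc
rat 9: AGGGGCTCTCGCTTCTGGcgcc
rat 10: CGGGGTCGGGGGTTCCCGggg
No start, taken as identical first 18 nt, stood among the leading 10 of both libraries. The leading positions were not all different, since rat 2 began 1 nt after mouse 8 in the same sequence. The start of rat 2 had 186 mouse reads and that of mouse 8 had 591 rat reads.

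The short GenBank rRNA fragments were a larger part of the rat library than of the mouse library. They held 3.51% of the listed mouse reads (interval 3.47 to 3.55) and 14.5% of the listed rat reads (14.49 to 14.58), so that the rat share was 4.14-fold that of the mouse. Of all reads of 18 to 25 nt under any label, 19.96% of those from the mouse and 46.9% of those from the rat were such fragments. Among GenBank rRNA reads of every length the short window took 33.5% in each library, so the libraries differed in the amount of GenBank rRNA while the short share of it was alike.

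Lengths inside the window were spread over all sizes and peaked differently. In the mouse 24 nt held 17.8% of the reads (17.3 to 18.3) and 18 nt held 17.2% (16.7 to 17.7), with the lowest share, 6.64%, at 19 nt. In the rat 23 nt held 18.07% (17.9 to 18.2) and 25 nt 16.5%, and the lowest share, 6.19%, was at 18 nt. The mouse thus had a peak at the shortest length of the window where the rat had its minimum. Neither library showed a single sharp length.

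**Figure D1:**
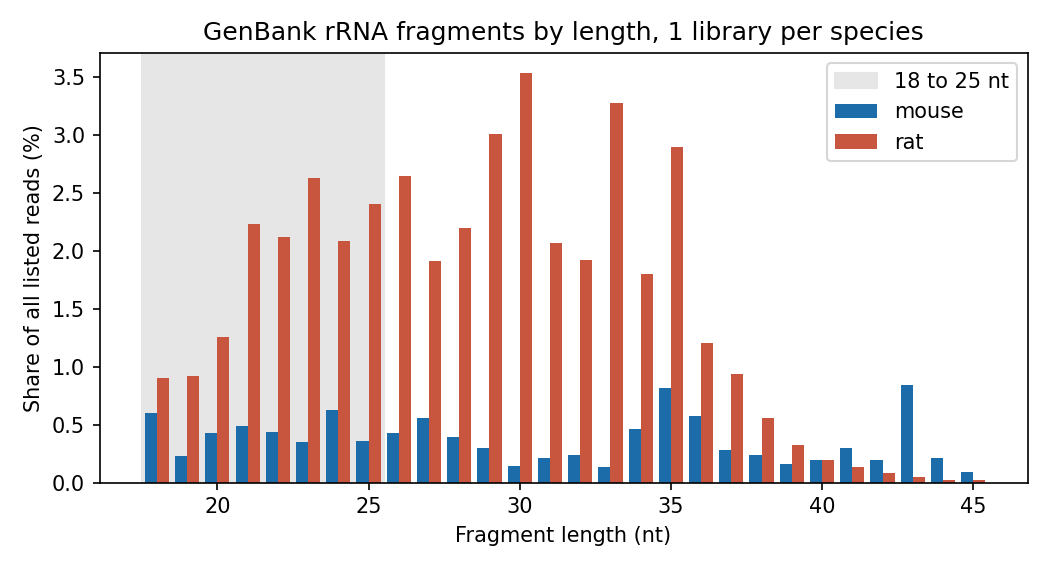
Share of all listed reads (vertical axis, percent) held by GenBank rRNA fragments of each length from 18 to 45 nt (horizontal axis), with 1 bar per species and 1 library each; grey marks the window of 18 to 25 nt. The short window is part of a continuous range of lengths in both libraries, with 3.51% of reads for the mouse and 14.5% for the rat.

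Reads were spread over many starts, with a stronger lead in the rat. The mouse fragments had 2569 starts and the rat fragments 6685. The leading start took 2.10% of reads in the mouse library (1.93 to 2.29) and 5.14% in that of the rat (5.06 to 5.22). The leading 10 took 15.9% (15.4 to 16.3) and 22.0% (21.8 to 22.1). With only sequences of at least 10 reads, this difference of 6.12 percentage points shrank to 0.293. The leading 100 took 55.6% and 61.3%. It took 76 mouse starts and 59 rat starts to reach 50% of the reads. Sequences read once made up 55.5% of the mouse and 49.8% of the rat sequences.

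**Figure D2:**
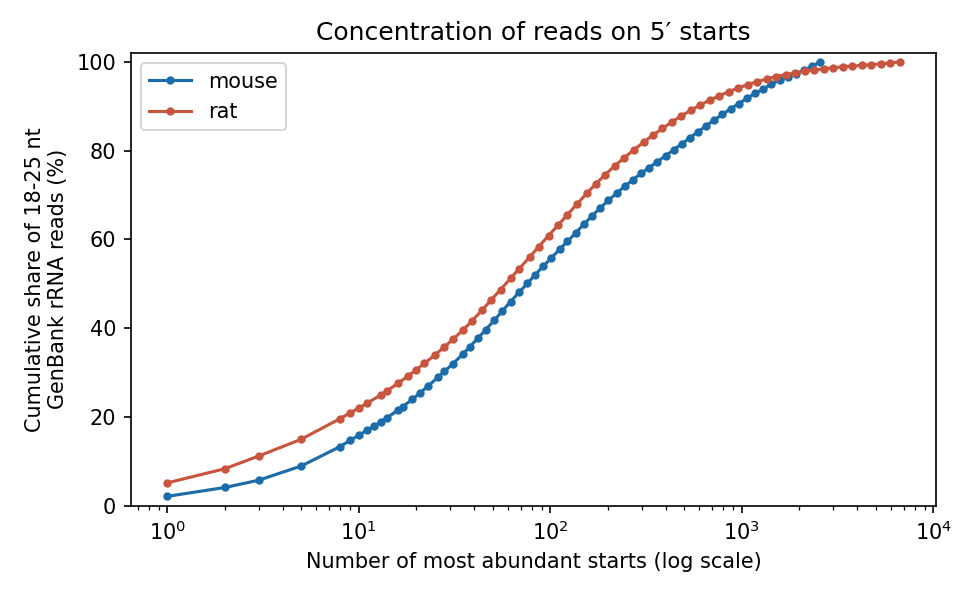
Cumulative share of the reads of 18 to 25 nt (vertical axis, percent) against the number of most abundant starts counted (horizontal axis, log scale), 1 curve per library. The rat curve runs above the mouse curve over the leading starts, with 22.0% against 15.9% at 10 starts and 61.3% against 55.6% at 100.

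In the mouse the leading starts were close to each other in abundance. The first, mouse 1, had 510 reads (467 to 556), of which the printed form of 25 nt had 400. Mouse 2 had 485 reads and mouse 3 had 396, and the intervals of the first and second overlapped. Mouse 4 had 389 reads, with 354 of them in its form of 24 nt. All 386 reads of mouse 5 were of exactly 18 nt, and no longer GenBank rRNA fragment of the mouse had that start. Mouse 6 had 364 reads and mouse 7 had 359. Mouse 10, the last of this group, still had 279 (247 to 314).

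In the rat 1 start stood well ahead. Rat 1 had 15701 reads (15456 to 15949), of which its form of 25 nt had 12668. Rat 2 had 9769 reads (9576 to 9965) and rat 3 had 8699. These differ by more than their counting intervals. Rat 2 was less uniform in length, and its most abundant form, of 24 nt, had 2429 reads. Rat 4 had 5979 reads, of which the printed form of 20 nt had 4101. The tenth had 3322.

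Several leading starts lay on one another, so they are not 10 separate positions. Mouse 3 began 1 nt after mouse 2, and its most abundant form ended 2 nt further on. Mouse 9 began 7 nt after mouse 1 and ended at the same base, so the 2 forms differ only at their 5′ end. Likewise rat 3 began 2 nt after rat 7 and ended at the same base. Rat 8 began 6 nt after rat 1 and ended 1 nt beyond it. Counted by their last 18 nt, the leading 10 3′ ends took 18.9% of reads for the mouse (18.4 to 19.4) and 19.08% for the rat (18.9 to 19.2). By the leading 10, the mouse reads were thus more concentrated by 3′ end than by start and the rat reads more by start, each beyond the counting intervals.

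Nearly every rat fragment, and most mouse fragments, shared ends with longer rRNA fragments of the same library. In the rat 94.3% of the reads (94.26 to 94.4) had the 5′ start of a GenBank rRNA fragment over 25 nt and matched it over their whole length, and 95.7% had the 3′ end of one. In the mouse these shares were 59.5% (58.9 to 60.1) and 61.6% (61.0 to 62.2). Reads found in no longer fragment made up 1.23% in the rat and 25.9% in the mouse. The longer fragments themselves numbered 33586 sequences and 605689 reads in the rat, but 8119 sequences and 48107 reads in the mouse, and that difference in depth moves with this result; its part was not tested. Single starts differed widely: rat 1 had 19585 reads in longer fragments beside its 15701 short ones and rat 5 had 25094 beside 5576, while rat 4 had 12 beside 5979 and rat 8 had 14 beside 4547. Mouse 7 had 3451 longer reads beside 359, and mouse 6 had 0 beside 364.

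**Figure D3:**
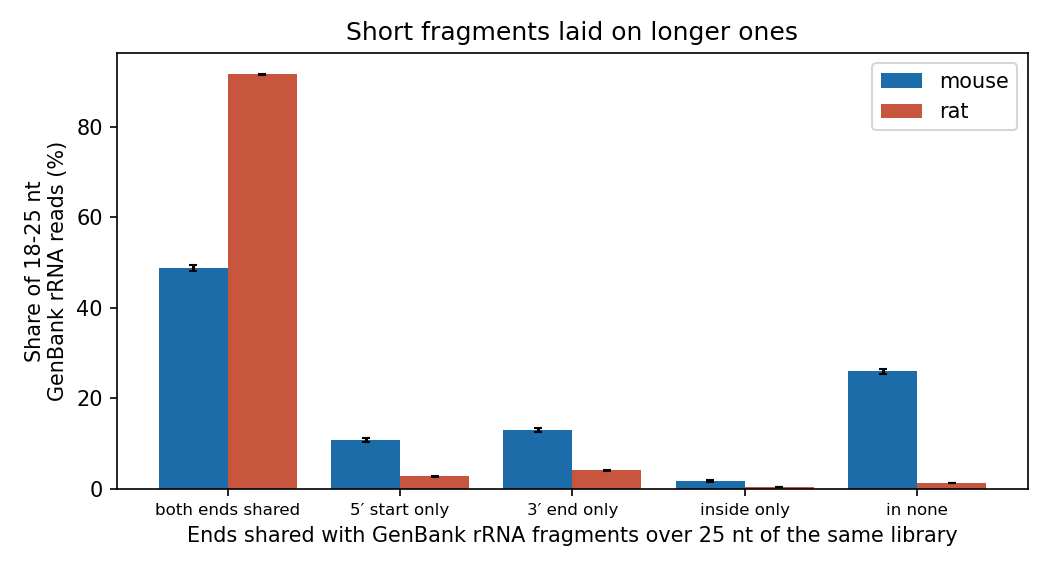
Share of the reads of 18 to 25 nt (vertical axis, percent, with exact 95% intervals) by the ends they share with GenBank rRNA fragments over 25 nt of the same library (horizontal axis), for 1 library per species. Both ends were shared by 91.7% of the rat and 48.7% of the mouse reads, and 25.9% of the mouse reads lay in no longer fragment against 1.23% in the rat.

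The fragments were rich in G and C and began most often with C. Read by read, G and C made up 70.5% of mouse bases and 78.3% of rat bases. The first base was C in 36.4% of reads from the mouse (35.8 to 37.0) and 51.2% from the rat (50.99 to 51.3). It was T, which stands for uridine, in 16.6% (16.2 to 17.1) and 7.70% (7.61 to 7.80), G in 26.5% and 18.2%, and A in 20.4% and 22.9%. Counted once per sequence, C led by less in the rat, with 42.2% against 36.4% in the mouse, and T stood at 11.5% against 15.998%. A first uridine is typical of piRNAs, the germline class of small RNA, and these fragments did not have it in the majority. In the mouse the share beginning with T was 25.95% at 18 nt and 8.43% at 25 nt, whereas in the rat it was 3.71% and 7.34%. At the other end, the last base was C in 49.7% of mouse reads and 59.7% of rat reads, and T in 24.99% and 8.57%.

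These features were set beside the most similar RNAs. GenBank rRNA fragments of 26 to 45 nt began with C in 23.996% of mouse reads and 58.5% of rat reads, so that with greater length the share beginning with C was lower in the mouse and higher in the rat. Their GC content was 60.5% and 75.4%, in both libraries below that of the short fragments. Their leading 10 starts held 29.4% and 36.9% of the reads, above the 15.9% and 22.0% of the short fragments. Reads of 18 to 25 nt assigned to 18S rRNA, the small subunit RNA, began with T in 33.4% in the mouse and 16.9% in the rat, had a GC content of 61.6% and 64.3%, and put 33.1% and 42.8% into 10 starts. Those assigned to 5S rRNA put 62.7% and 54.3% into 10 starts and those assigned to 5.8S rRNA 81.2% and 78.2%, on 166 and 301 starts for 5S and 53 and 154 for 5.8S. The short GenBank rRNA fragments were the least concentrated and the richest in G and C of these groups in both libraries, as a description without a test. The groups differed in how well they matched their entries. In mouse and rat, reads with 0 mismatches were 98.7% and 94.6% of the short GenBank rRNA fragments and 91.6% and 20.2% of 18S. They were 52.5% and 96.0% of 5S and 0.233% and 69.6% of 5.8S. The part of this difference in the comparison was not tested.

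Few database entries took most of the reads. In the mouse 121 entries were hit, and GU372691.1 alone held 82.7% (82.2 to 83.2), with 20056 reads of 4204 sequences. The next were J00623.1 with 1613 reads and AF441733.2 with 1532. Of the reads of AF441733.2, 504 had the start of mouse 1. Next came NR_046144.1, which RefSeq pairs with n-R5s136, a 5S rRNA gene, with 277 reads, and AB183255.1 with 230, of which 220 had the start of mouse 7. In the rat 72 entries were hit, NR_046239.1 held 47.8% with 146219 reads and NR_046246.1 held 40.7%, followed by NM_147136.1 with 19866 reads, NR_046237.1 with 3828 and JN865046.1 with 3061. The leading 2 entries thus took 89.3% of mouse reads and 88.5% of rat reads. The label rRNA also covered mRNAs of ribosomal proteins. In the mouse 26 entries matched RefSeq transcripts of protein-coding genes and held 49 reads together. Of these, 23 had symbols of ribosomal proteins such as Rpl41, Rpl13 and Rps27. Only 28 of the 121 mouse entries were matched to RefSeq, so mRNAs among the others are not counted. In the rat 21 entries had names beginning with NM, as those 26 do, and held 19894 reads. Of these reads 19866 were on NM_147136.1. What the rat entries encode was not looked up.

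Strand set the libraries apart through a single entry. Matches to the minus strand of an entry made up 12 mouse reads of 10 sequences, 0.0495% (0.0256 to 0.0864), and 19896 rat reads of 1811 sequences, 6.51% (6.42 to 6.60). Of the rat reads 19866 fell on NM_147136.1, the most abundant entry of the rat after those 2, and at every length that entry had 0 plus-strand reads and 63915 minus-strand reads. The most abundant of these fragments are printed because their direction is the point, in the direction in which they were read, with the start in capitals.
rat minus 1: CGCGGCGCCTCGCCTCGGccggc
rat minus 2: CGGCGCCTCGCCTCGGCCggc
rat minus 3: CGGGCTGGGGCGCGAAGCgggg
They had 2028, 1590 and 627 reads, with 0 mismatches. Turned to the read direction, the first 18 nt of 18411 of the 19896 rat minus-strand reads, 92.5%, also occurred in mouse reads that matched GenBank rRNA on the plus strand. In the opposite direction, as the table prints them, 0 reads did. The start of rat minus 1 was the start of 93 such mouse reads, and that of rat minus 3 of 188. By sequence these rat fragments thus ran in the same direction as plus-strand mouse rRNA reads. Within the rat library 4448 of them (22.4%) had their first 18 nt in a plus-strand read of any label. Without NM_147136.1 the minus share was 0.0105% in the rat against 0.0495% in the mouse, and the order of the libraries turned.

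Most fragments matched their entry exactly. Reads with 0 mismatches were 98.7% of those from the mouse (98.5 to 98.8) and 94.6% of those from the rat (94.5 to 94.65). Where a read had 1 mismatch, it lay on the last base for 24.9% of mouse reads and 27.3% of rat reads, and on one of the last 3 bases in 43.6% and 49.5%. The leading mismatched fragments of the rat are shown with the mismatched bases in capitals, the first because its mismatch is at the 3′ end and the others because 2 neighbouring bases differ.
rat mismatch 1: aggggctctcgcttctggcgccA
rat mismatch 2: ggcggagCGctgagaagacggtc
rat mismatch 3: cggcgtcgggccccgcggaCGc
Counted from 1 at the 5′ end, with the base of the entry first, the first was G23A with 741 reads. The second was G8C and C9G with 571 reads, and the last was G20C and C21G with 405. The first and last were also listed in the mouse with 0 mismatches, at 16 and 59 reads. Of the 16599 rat reads with a mismatch, 1323 (7.97%) belonged to sequences that the mouse table listed without one, against 1 of 316 mouse reads the other way.

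The 2 species shared a minority of their distinct fragments, but these held a larger part of the reads. In both libraries 1661 sequences were listed among the short GenBank rRNA fragments, 33.7% of the mouse and 9.92% of the rat sequences. They took 50.8% of mouse reads (50.2 to 51.4) and 30.8% of rat reads (30.6 to 31.0). With the rat fragments thinned to the number of mouse reads, an alternative chosen after seeing the data, the expected shared part of the mouse reads was 35.6%, and the difference of rat minus mouse moved from -20.02 to -4.79 percentage points. Starts in common took 67.9% and 51.5%. Looked for under any label, the same sequences held 69.9% and 51.1%, and the first 18 nt occurred somewhere in a listed read of the other species for 87.7% and 79.1%. The shared fragments with the highest level in the library where they were lower are printed as the common core.
shared 1: ATGGCGCTGGAGCGTCGGgccc
shared 2: ATCCGGAGTGGCGGAGATgggcgcc
shared 3: TCCGGAGTGGCGGAGATGggcgcc
shared 4: TGGCGCTGGAGCGTCGGGccc
shared 5: GATCCTTCGATGTCGGCT
Shared 1 had 147 mouse reads (124 to 173) and 781 rat reads (727 to 838), or 213 and 371 reads per 1000000 listed reads (RPM). Shared 2 had 131 and 617 reads and shared 4 had 130 and 747, all 3 of these lower in the mouse per listed read. Shared 3 had 166 and 396 reads, and shared 5 had 170 and 395, which put both slightly higher in the mouse per listed read, at log2 ratios of 0.35 and 0.39. Shared 4 is shared 1 without its first base, and shared 3 is shared 2 without its first base, so these are not 5 separate positions.

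Most starts with enough reads to compare were higher per listed read in the rat. Across the 1215 starts that both listed, Pearson's r of the log10 counts was 0.42 and Spearman's rho 0.37, a description of 2 libraries, since starts are no replicates. Of 686 starts with at least 50 reads in the 2 libraries together, 521 (75.9%) were at least 4-fold higher per listed read in the rat and 52 (7.58%) in the mouse. Over all 1336 starts of reads of 18 to 25 nt under any label the same shares were 58.2% and 11.1%. A start counts as changed here by its fold alone, in 1 library against 1, with a pseudocount of 1 RPM. The fragments together held a 4.14-fold larger share of the rat reads. A start with an equal part of the fragments in each library is thus already about 4-fold higher in the rat. The bound of 50 reads sums libraries of unequal depth, and a start with 0 reads in one library entered through the other alone. Of the 686 starts 313 (45.6%) had 0 mouse reads and 22 (3.21%) had 0 rat reads. Over all 1336 starts under any label these shares were 22.8% and 2.54%. Over the 876 starts of these fragments counted under any label they were 26.1% and 1.26%. For the 460 starts outside them they were 16.5% and 5%. Mouse lines without a count, 264 of them among these fragments, were left out, so a mouse 0 can hide a listed sequence. With dates read as counts, the rat reads in shared sequences rose from 30.8% to 34.2%. Neither zeros nor ratios were recounted that way. The median log2 ratio of mouse over rat was -4.76. With the zeros set to a limit of 3 reads it was -3.31, with 527 starts past 4-fold toward the rat and 52 toward the mouse. Over all 1336 starts under any label these medians were -2.65 and -2.62, with 794 and 149 starts past 4-fold at that limit. Without the limit, the median under any label was -3.25 for the 876 starts and -1.83 for the 460 outside them. With a pseudocount of 10 RPM the median was -2.28, and 411 starts were past 4-fold toward the rat and 49 toward the mouse. Scaled to the reads of the fragments themselves, 409 starts were past 4-fold toward the rat and 79 toward the mouse. Neither of these alternatives was counted over all starts, so their counts do not set these fragments apart. The count also moved with the label: with all reads of 18 to 25 nt counted under any label, 63.9% of 876 starts were at least 4-fold higher in the rat and 7.31% in the mouse, against 47.4% and 18.3% of the 460 other starts.

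**Figure D4:**
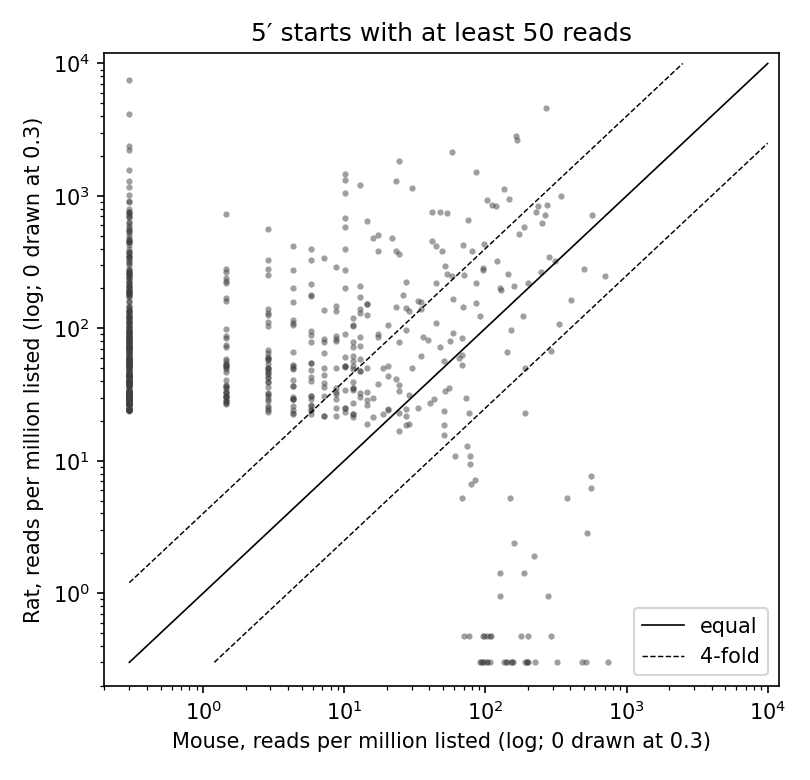
Reads per 1000000 listed reads (RPM) in the mouse (horizontal axis, log scale) and the rat (vertical axis, log scale) for the 686 starts with at least 50 reads in the 2 libraries together; a count of 0 is drawn at 0.3, the solid line marks equal values and the dashed lines 4-fold ratios. There are 313 points at 0 in the mouse and 22 at 0 in the rat, and most of the points listed in both lie above the solid line.

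Of the 106 starts with 100 or more reads in one species and 10 or more in its counterpart, 89 were higher per listed read in the rat and 17 in the mouse. These bounds are raw reads in libraries of unequal depth, and the fragments together held a 4.14-fold larger share in the rat. No such count was made over all starts of this length, so the numbers do not set these fragments apart. The largest ratio toward the mouse was that of mouse 5, with 386 mouse and 13 rat reads (log2 ratio 6.28), the same under any label. Second was mouse 4, with 389 and 16 reads (6.03), and under any label the ratio was 3.21, since 110 more rat reads with this start were assigned to mRNA entries. CAGGATTCCCTCAGTAAC followed with 262 and 11 reads (5.93, and 3.32 under any label), then GAGGTGCGTGGCGGGGGC with 103 and 11 (4.59) and AGCCCGTGGACGGTGTGA with 132 and 48 (3.01). Under any label GAGGTGCGTGGCGGGGGC was at 4.60, while AGCCCGTGGACGGTGTGA had 128 rat reads and a ratio of 1.63, under 4-fold. The largest toward the rat was rat 9, with 17 mouse and 3887 rat reads (-6.18). Under any label it had 507 mouse reads and a ratio of -1.33. After it came CGGGTGGGGTCCGCGCAG with 16 mouse and 2732 rat reads (-5.75), CGGCGGCGGCGGCGACTC with 10 and 1352 (-5.38), rat 8 with 40 and 4547 (-5.20) and AGCGTACGCGTTAGGACC with 21 and 2395 (-5.18). Under any label the first was unchanged and the second was at -5.25, but rat 8 had 185 mouse reads and a ratio of -3.01, and AGCGTACGCGTTAGGACC had 47 and -4.07. Of the leading rat starts, rat 2, rat 4 and rat 5 kept log2 ratios of -4.11, -4.13 and -3.97 under any label, with 186, 113 and 116 mouse reads. Mouse 3, with 396 and 1496 reads, was close to equal, at -0.31.

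Some starts had many reads in one library and 0 among the same fragments of the other. This held for 12 of the 52 starts with at least 100 mouse reads (23.1%) and 195 of the 405 with at least 100 rat reads (48.1%). Over all starts of 18 to 25 nt under any label the shares were 10.8% and 25.3%, and over the starts of these fragments counted under any label 4.88% and 27.4%, against 17.3% and 20.2% of the starts outside them. The lower mouse depth and the mouse lines left out for lack of a count move with the larger rat share, and their part was not tested. Under any label, 3 of these mouse starts and 129 of these rat starts still had 0 reads of 18 to 25 nt in the other species. Those with the most mouse reads were mouse 1, mouse 7, mouse 9, GGTGCGGACCAGGGGAAT with 223 and GTTCGTGTGGAACCTGGC with 156. The last of these lies within the printed mouse 1, and its leading form ends at the same base, as mouse 9 does. These are thus not all separate positions. Those with the most rat reads were rat 1, rat 3, rat 6, rat 7 and rat 10. Mouse 1 had 178 rat reads assigned to mRNA and mouse 9 had 106. The starts with 223 and 156 mouse reads had 158 and 34 such rat reads. Under any label the log2 ratios of these starts were, in the same order, 3.14, 3.87, 2.13 and 3.86. At any position in a read of any length and label, their 18 nt stood in 4710, 1518, 3509 and 4652 rat reads, in that order. Mouse 7 had 0 rat reads under any label. Rat 1 had 168 mouse reads assigned to piRNA entries, and rat 3 and rat 7 had 17 and 1 assigned to mRNA. With those counted, the log2 ratios of rat 1, rat 3 and rat 7 were -4.95, -7.34 and -9.82. At any position in a read, their 18 nt stood in 2874, 18 and 2 mouse reads. Longer GenBank rRNA fragments of the mouse had the start of rat 1 in 124 reads. A start at 0 here was thus not always a sequence missing from the other library. Rat 6, with 5049 rat reads, and rat 10, with 3326 under any label, had 0 mouse reads of this length under any label. Taking 3 mouse reads as the limit, they were at least 553-fold and 365-fold higher in the rat. The Poisson interval of a count of 0 reaches 3.69 reads, and with that limit both folds would be lower. Neither start occurred inside any listed mouse read that carried a count. The nearest 18-mers of the mouse reads differed from each at 3 bases, and 1 of 2 such 18-mers for rat 6 and 1 of 3 for rat 10 is shown, with the differing bases in capitals.
rat 6: aggggtCgggGcggggTc
nearest mouse: aggggtGgggCcggggGc
rat 10: cggggtcgggggtTcCCg
nearest mouse: cggggtcgggggtGcGTg
Counted from 1 at the 5′ end with the rat base first, the differing bases were C7G, G11C and T17G for rat 6, with 2 mouse reads. For rat 10 they were T14G, C16G and C17T, with 695 mouse reads. These 18-mers were picked by the number of equal bases alone and were not placed on the rRNA. They need not come from the same position in the 2 species.

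The labels of the table split one set of sequences. In each library most fragments, 59.3% of mouse reads and 71.2% of rat reads, held an 18-mer that also occurred in reads of the same library assigned to mRNA. For reads assigned to mitochondrial RNA the shares were 14.045% and 0.0262%, and for piRNA 7.89% and 1.16%. In both libraries few held an 18-mer of reads assigned to 18S rRNA, 0.0289% and 1.11%, to 5S rRNA, 1.15% and 0.116%, or to 5.8S rRNA, 0.0453% and 0.282%. The start CGCGACCTCAGATCAGAC, the 5′ end of mature 28S rRNA, was itself nearly absent from these fragments, with 0 mouse and 16 rat reads, but reads of 18 to 25 nt with that start under any label numbered 511 and 2948. Counts of single positions therefore depend on which label is followed.

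Exact matches to annotated mouse transcripts (GENCODE M21, genome build GRCm38) were found for 1175 mouse reads, 4.84%, on the sense strand. The reference holds no complete rRNA precursor, so this share does not measure how many reads came from rRNA. The leading match was mt-Rnr2, the large rRNA of the mitochondrial ribosome, at 1094 to 2675 on the plus strand of chromosome M, the mitochondrial genome, with 383 reads. Of these 359 had the start of mouse 7, at the first base of the gene, and the printed form of 23 nt covered 1094 to 1116 with 155 reads. In the mouse 5598 reads of any label and length had that start, and in the rat 0. The nearest 18-mers of the rat reads differed from it at 2 bases, and the most abundant of them had 5 reads. Next were Lars2, a mitochondrial leucyl-tRNA synthetase gene on chromosome 9 at 123366927 to 123462666, with 261 reads, and AA474408 on chromosome 7 at 110057987 to 110061325, with 258. Gm26917, annotated as a lincRNA on chromosome 17 at 39843013 to 39846341, had 157 reads of 117 sequences. These sets overlap, since a read can match several transcripts. All of these reads were assigned to rRNA entries, and a match does not show that a read came from that transcript. Among RefSeq miRNA sequences of the mouse (GRCm38.p6), 19 reads lay inside a hairpin or held a mature form, 18 of them in Mir6538. Transcripts that GENCODE types as miRNA matched more reads, with 99 at each of Gm23935, Gm24245 and Gm24270, 85 at Gm24187 and 43 at Mir6236, and the same read can count at several of them.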

How the data were processed

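Small RNAs of 18 to 45 nt were counted in 1 mouse and 1 rat library. The deposited values are raw counts of reads per distinct sequence, which the authors matched with at most 2 mismatches to miRBase, Rfam and GenBank entries, per the file headers. The submitters' processing notes name Bowtie 0.12.7 and 2 builds, mm9 and rn5, without a role. How adapters were trimmed, and how 1 match was picked for a sequence with several, is not stated there or in the labels.

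Members were sequences of 18 to 25 nt assigned to a GenBank entry ending in rRNA. Sequences on the minus strand were reverse-complemented, which fitted all 18434 mouse and 28090 rat mismatched bases. In the mouse 2535 lines, 264 of them members, had a date for an identifier and no count and were left out, and so was a line holding the total. Shares carry Clopper-Pearson and counts Poisson 95% intervals. As a limit for a count of 0, 3 counts were used (0.0124% of the mouse and 0.000982% of the rat members). That is below the 3.69 counts that the Poisson interval of 0 reaches. Ratios used RPM of all listed reads and a pseudocount of 1 RPM. No test was possible with 1 library per species, and no p-value was computed. The ratio functions were tested on simulated counts.

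Named were the 10 leading starts of each library, the 5 leading entries, the 5 largest ratios each way, the 5 leading starts at 0 in the other library, 5 shared sequences and 3 minus-strand sequences. Others named, such as the leading mismatched sequences and transcripts, were chosen after their values were seen. The members, lists and rules were chosen with earlier results of these data known. Python 3.11.15, pandas 2.3.3, numpy 2.4.6 and scipy 1.17.1 were used. Alternatives covered counts, mismatches, lengths, weights, scaling and pseudocounts.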

Additional observations from a re-analysis of the deposited data

How the results depend on the processing

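Each difference below is rat minus mouse, in percentage points. The share of listed reads, 11.0 as reported, was 11.9 with at least 10 reads per sequence, 11.75 without mismatches, 8.001 at 20 to 24 nt, 6.49 with each sequence counted once, 9.79 without the 10 most abundant sequences and 10.8 with dates read as counts. The share in 10 starts, 6.12 as reported, was in the same order 0.293, 6.76, 1.90, 0.166, 2.15 and 7.41, of which 0.293 and 0.166 lay within their counting error of 0. The share beginning with T, -8.93 as reported, was -9.54 with at least 10 reads, -6.70 at 20 to 24 nt, -4.46 with each sequence counted once and -8.13 without the 10 most abundant. The minus-strand share, 6.46 as reported, was 6.22 with at least 10 reads, 6.03 without mismatches, 7.27 at 20 to 24 nt, 10.6 with each sequence counted once, 7.41 without the 10 most abundant and -0.0390 without NM_147136.1. The share in sequences of both libraries, -20.0 as reported, was in the order of the first sentence -22.6, -18.9, -18.9, -23.8, -18.7 and -16.9, then -16.4 over the first 18 nt and -4.79 with the rat thinned. Starts at least 4-fold higher in the mouse rose from 52 to 79 scaled to the members' own reads, where 409 were higher in the rat; with a pseudocount of 10 RPM they numbered 49 and 411, and the median log2 ratio was -2.28. Neither alternative was counted over all starts of this length. Of single named starts, mouse 3 turned from -0.31 to 1.74 scaled to the members' own reads and to 0.01 under any label. Thinning, any label and the entry left out were chosen after seeing the data. The cause of these changes was not tested. No paired analysis was possible because there is 1 library per species. Unlisted reads and the lower mouse depth limit all counts of 0. The mouse lines left out for lack of a count also limit those of the mouse. Neither ratios nor zeros were recounted with dates read as counts.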
